A study of Homo sapiens with 10 samples.

Results

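Interferon-stimulated genes (ISGs) are the antiviral genes that cells switch on when interferon or foreign nucleic acid is sensed, and 44 of them were followed by their symbols through all 10 RNA-Seq libraries of a study of PSPC1 and PTK6 in hepatocellular carcinoma cell lines. The 44 genes, of 58302 genes listed in each library, were taken as a fixed list of symbols matched to Ensembl identifiers, and all 44 were found. They were read as 4 sensors (DDX58, IFIH1, DHX58 and DDX60), 4 transcription factors (STAT2, IRF1, IRF7 and IRF9) and 36 effectors. PSPC1 is a protein of nuclear paraspeckles and PTK6 is a nonreceptor tyrosine kinase. The SK-Hep1 libraries were a mock control and transfectants overexpressing PSPC1, PSPC1 with PTK6 (PSPC1/PTK6), PSPC1 with its tyrosine exchanged for phenylalanine so that PTK6 cannot phosphorylate it (PSPC1-Y523F), and that mutant with PTK6 (PSPC1-Y523F/PTK6). The Mahlavu libraries were a mock control, a library labelled for the C-terminal part of PSPC1 (PSPC1-CT131) and a library labelled for a mutant of its nuclear localization sequence (Mut-NLS-CT131). The Huh-7 libraries were control cells and cells given HGF (10 ng/ml) over 48 h. Each condition had 1 library, made from a cell line or its transfectants, so no difference below has a replicate check and no p-value is given. Whether the sequenced transfectants were stable clones is not given in the sources used here, and differences between cultures cannot be told apart from the construct. Whether a difference comes from fewer expressing cells or from less RNA per cell cannot be told apart in bulk RNA either.

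Cells detect viral RNA with the helicases RIG-I (DDX58) and MDA5 (IFIH1), which signal through MAVS and TBK1 to IRF3 and induce type I and type III interferons. The interferons bind their receptors (IFNAR1 with IFNAR2, or IFNLR1 with IL10RB), the kinases JAK1 and TYK2 phosphorylate STAT2, which joins IRF9 in a complex that binds the interferon-stimulated response element (ISRE) in the promoters of ISGs. The induced effectors degrade or sequester viral RNA, block entry or release of particles and conjugate the ubiquitin-like protein ISG15, while USP18 turns the pathway down. Tumour cells often carry a raised ISG level without infection, and cell lines differ in which parts of the pathway they retain.

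The RefSeq promoters (GRCh38.p14, 250 bases before to 50 bases after the start site) were read first, because the ISRE is the element that links these genes. A promoter entry was matched for 35 of the 44 genes, and DHX58, IRF7, OAS2, OASL, IFIT2, IFITM2, MX2, USP18 and TRIM22 had none. The ISRE core was searched as GAAANNGAAA on both strands, overlaps allowed. It was present in 21 of 35 promoters (60%), against 4.38% of the 27305 gene symbols in the promoter table, and 14 promoters held it at least 2 times. It was found in 2 of 3 sensors, 0 of 3 transcription factors and 19 of 29 effectors with an entry. A GAS core, TTCNNNGAA, the site of the interferon gamma response, was present in 10 of 35 promoters (28.6%), against 9.38% of all symbols. A match is a description of the letters and not evidence of binding. Because the spacing of the core was fixed, the absence of a match does not mean that a promoter has no ISRE. The windows below are those of the genes on which the results turn, each 30 bases long on the strand of the gene, with the 10 bases of the core in capitals. They include MX1 and EPSTI1, which hold the same core but had few or no reads in SK-Hep1.
IFI27, chr14:94110618-94110647, plus strand: atgtctgcagTTTCGGTTTCctggaaaatg
IFITM1, chr11:314024-314053, plus strand: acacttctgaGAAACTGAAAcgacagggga
ISG15, chr1:1013380-1013409, plus strand: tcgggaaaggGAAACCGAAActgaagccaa
IFI6, chr1:27672288-27672317, minus strand: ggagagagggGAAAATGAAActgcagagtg
IFIT1, chr10:89392497-89392526, plus strand: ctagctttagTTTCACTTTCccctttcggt
IFI44, chr1:78649761-78649790, plus strand: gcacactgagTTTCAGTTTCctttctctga
BST2, chr19:17405741-17405770, minus strand: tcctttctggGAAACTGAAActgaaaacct
OAS3, chr12:112938452-112938481, plus strand: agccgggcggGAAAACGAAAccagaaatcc
MX1, chr21:41420559-41420588, plus strand: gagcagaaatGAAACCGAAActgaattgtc
EPSTI1, chr13:42992272-42992301, minus strand: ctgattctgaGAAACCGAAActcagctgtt
The core of IFI44 began 18 bases and that of EPSTI1 50 bases before the start site, while the core of MX1 lay after the start site. IFI27 had the largest log2 fold change reported here, though not the largest ratio of reads. Its cores, on opposite strands, began 108 and 95 bases before the start site (chr14:94110586-94110685, plus strand, bases 150 to 51 before the start site, cores in capitals).
IFI27 promoter: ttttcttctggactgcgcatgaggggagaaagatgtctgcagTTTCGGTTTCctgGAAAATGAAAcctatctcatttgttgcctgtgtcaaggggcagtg

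The labels were checked on the overexpressed genes. PSPC1 had 0 reads in SK-Hep1 mock, where 3 reads would have given 0.0938 FPKM (fragments scaled to gene length and library size). It had 7.01 FPKM in PSPC1, 26.4 FPKM in PSPC1/PTK6, 2.28 FPKM in PSPC1-Y523F and 70.9 FPKM in PSPC1-Y523F/PTK6, so the 4 transfectants had very unequal PSPC1 levels. PTK6 had 16.7 FPKM in PSPC1/PTK6 and 10.5 FPKM in PSPC1-Y523F/PTK6, against 4.09 to 5.69 FPKM in the other SK-Hep1 libraries. In Mahlavu, PSPC1 had 47.3 FPKM in mock against 30.8 (label PSPC1-CT131) and 22.5 (label Mut-NLS-CT131). It was not higher with either label. These constructs are parts of PSPC1, and in SK-Hep1 the transfected PSPC1 was counted on this gene. Whether reads of the shorter constructs are also counted there is not given in the sources used here. The PSPC1 levels thus did not bear out the labels in this line, and the reason was not tested. PTK6, which was not transfected there, had 8.95 FPKM in mock against 17.2 (label PSPC1-CT131) and 17.3 (label Mut-NLS-CT131). Libraries held 15245935 to 24278662 reads on genes. All lines are labelled hepatocellular carcinoma, but 7 of 8 hepatocyte markers, ALB and HNF4A among them, were below 1 FPKM in every SK-Hep1 and Mahlavu library, and only Huh-7 had all 8. The 8 markers summed to 16.3 to 42.4 FPKM in SK-Hep1, 7.99 to 10.3 FPKM in Mahlavu and 14684 to 14979 FPKM in Huh-7. Of 6 leukocyte markers, CD14 alone reached 1 FPKM in any library, the list summed to 6.07 to 18.3 FPKM in SK-Hep1 and 7.21 to 10.3 FPKM in Mahlavu, and its sum of 10.2 FPKM in PSPC1/PTK6 was below that of mock. The 6 endothelial markers summed to at most 1.41 FPKM in these lines and 6.98 FPKM in Huh-7.

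Among the 3 control libraries, 29 of 44 members (65.9%) had their highest FPKM in Mahlavu mock, against 35.8% of the 16713 genes that reached 1 FPKM in one of them. SK-Hep1 mock was the highest for 13 members (29.5%) and 21.0% of these genes, and Huh-7 control for 2 members (4.55%) and 43.2%. The median of the 44 genes was 9.96 FPKM in SK-Hep1 mock, 21.0 FPKM in Mahlavu mock and 1.22 FPKM in Huh-7 control. Together the ISGs took 0.383% of the reads in SK-Hep1 mock, 0.533% in Mahlavu mock and 0.0590% in Huh-7 control. These shares compare lines sequenced once each, and in Huh-7 the reads were recovered from FPKM.

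With PSPC1/PTK6, the ISGs of SK-Hep1 cells were higher than in mock as a group. Fold changes are log2 ratios of quantile-normalized FPKM plus 1, and a gene was kept if the mean of its FPKM in both libraries reached 1. Of 42 members kept, 28 were at least 2-fold higher (5.09% of all 12436 genes kept) and 0 at least 2-fold lower (3.32% of all genes). From FPKM as deposited, 33 members were at least 2-fold higher (8.16% of all genes), so members just under 2-fold below depend on the scale. The median log2 fold change of the 42 members was 1.67, against −0.04 over all genes. All 44 members took 0.953% of the reads with PSPC1/PTK6, against 0.220% to 0.450% in the other 4 SK-Hep1 libraries, and their median level was 58.4 FPKM against 4.76 to 11.6 FPKM. PSPC1/PTK6 was the highest of the 5 libraries for 40 of 42 members, a position it held for 25% of all genes.

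**Figure D1:**
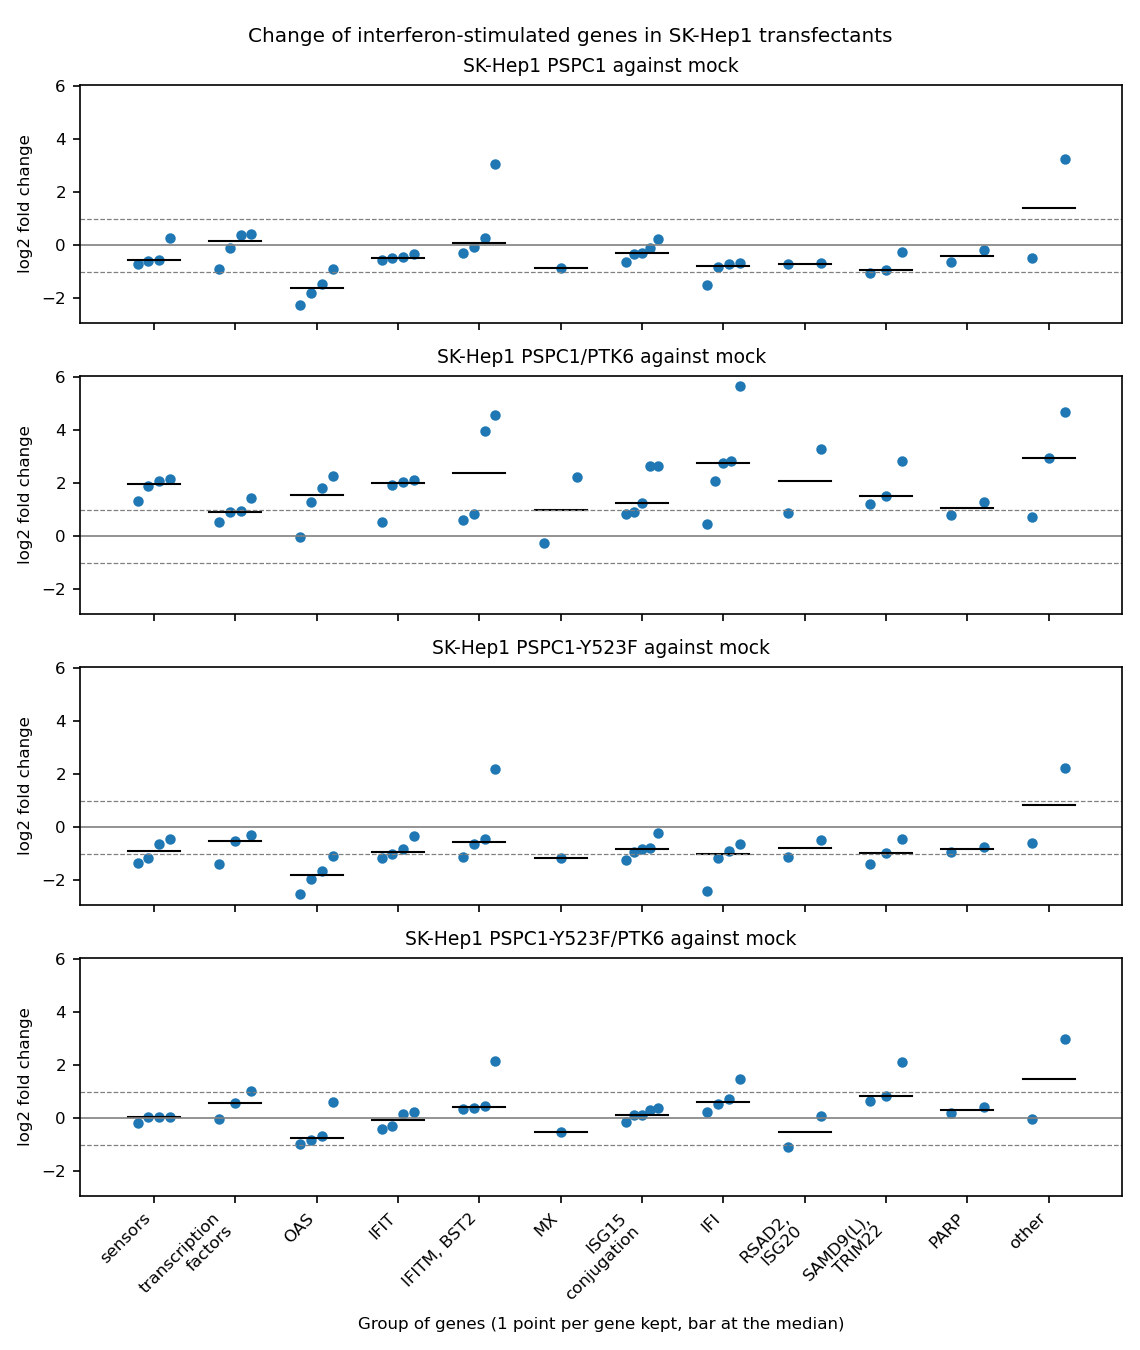
Log2 fold change against SK-Hep1 mock of each member kept, by functional group, in the 4 transfectants; bars mark the median of a group, and dashed lines mark 2-fold. Most points lie above 0 with PSPC1/PTK6 (median 1.67) and below 0 with PSPC1 (−0.55) and PSPC1-Y523F (−0.91), and BST2 and ODF3B stand apart from the others in both of the latter.

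All 4 sensors were at least 2-fold higher with PSPC1/PTK6. DDX58 (ENSG00000107201, GRCh38 chromosome 9, 32455705 to 32526324), which encodes RIG-I, had 5.44 FPKM in mock, 27.2 with PSPC1/PTK6, 3.08 with PSPC1, 2.80 with PSPC1-Y523F and 5.14 with PSPC1-Y523F/PTK6. IFIH1 (ENSG00000115267, GRCh38 chromosome 2, 162267079 to 162318703), which encodes MDA5, had 15.3 FPKM in mock, 78.0 with PSPC1/PTK6, 9.45 with PSPC1, 5.42 with PSPC1-Y523F and 12.1 with PSPC1-Y523F/PTK6. DHX58, which encodes the regulator LGP2, had 28.9 FPKM in mock, 80.0 with PSPC1/PTK6, 34.4 with PSPC1, 19.7 with PSPC1-Y523F and 28.1 with PSPC1-Y523F/PTK6. In these 3 genes PSPC1/PTK6 stood above the other 4 libraries. DDX60, a helicase that promotes RIG-I signalling, had 7.03 FPKM in mock, 38.4 with PSPC1/PTK6, 3.73 with PSPC1, 1.95 with PSPC1-Y523F and 6.71 with PSPC1-Y523F/PTK6. The log2 fold changes against mock were 1.88, 2.14, 1.34 and 2.08 in the order given. The ratio of DDX58 reads per library total was 5.00 (95% exact interval 4.55 to 5.51, counting error only).

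Of the transcription factors, 1 of 4 was at least 2-fold higher. IRF7, which amplifies interferon production, had 21.7 FPKM in mock, 65.4 with PSPC1/PTK6, 10.2 with PSPC1, 6.55 with PSPC1-Y523F and 43.3 with PSPC1-Y523F/PTK6, a log2 fold change of 1.45 with PSPC1/PTK6 that was past 2-fold. STAT2, a subunit of the ISRE-binding complex, had 28.5 FPKM in mock, 60.5 with PSPC1/PTK6, 37.3 with PSPC1, 22.4 with PSPC1-Y523F and 41.8 with PSPC1-Y523F/PTK6. IRF1, an activator shared with interferon gamma, had 27.5 FPKM in mock, 56.4 with PSPC1/PTK6, 25.1 with PSPC1, 17.6 with PSPC1-Y523F and 25.2 with PSPC1-Y523F/PTK6. STAT2 and IRF1 were both highest with PSPC1/PTK6, but their log2 fold changes of 0.96 and 0.90 were just under 2-fold. IRF9, the DNA-binding subunit of the complex, had 0.574 FPKM in mock, 1.85 with PSPC1/PTK6, 1.12 with PSPC1, 0.590 with PSPC1-Y523F and 0.466 with PSPC1-Y523F/PTK6, which rested on 39 reads or fewer. Its count is uncertain, since 48.4% of its exon bases are shared with the gene AL136295.5 on the same strand, and 22.0% of those of IRF1 lie opposite other genes in a library preparation that does not mark strand.

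Among the effectors, 23 of 34 kept were at least 2-fold higher with PSPC1/PTK6 and 0 lower. The largest change on this log2 scale was in the IFI group, in which 4 of 5 genes were at least 2-fold higher. IFI27 (ENSG00000165949, GRCh38 chromosome 14, 94104836 to 94116698), a mitochondrial protein and one of the most used interferon markers, had 3.52 FPKM in mock, 254 with PSPC1/PTK6, 1.78 with PSPC1, 1.36 with PSPC1-Y523F and 11.2 with PSPC1-Y523F/PTK6. This was 53 reads in mock and 4213 reads with PSPC1/PTK6, a ratio per library total of 72.2 (55.1 to 96.5) and a log2 fold change of 5.65. IFI6 (ENSG00000126709, GRCh38 chromosome 1, 27666061 to 27672218), an inhibitor of apoptosis, had 165 FPKM in mock, 717 with PSPC1/PTK6, 53.9 with PSPC1, 27.4 with PSPC1-Y523F and 249 with PSPC1-Y523F/PTK6. IFI44, whose promoter core is shown above, had 7.81 FPKM in mock, 67.5 with PSPC1/PTK6, 4.07 with PSPC1, 4.12 with PSPC1-Y523F and 12.6 with PSPC1-Y523F/PTK6. Its neighbour IFI44L, which feeds back on the pathway, had 0.159 FPKM in mock, 8.48 with PSPC1/PTK6, 0 with PSPC1, 0.0273 with PSPC1-Y523F and 0.616 with PSPC1-Y523F/PTK6. All 4 had their highest level in PSPC1/PTK6, and IFI44L had 0 to 26 reads in the others against 352. IFI35 had 156 FPKM in mock, 208 with PSPC1/PTK6, 81.7 with PSPC1, 65.5 with PSPC1-Y523F and 184 with PSPC1-Y523F/PTK6, a smaller log2 fold change of 0.46.

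Of the ISG15 system, 3 of 5 genes were at least 2-fold higher. ISG15 (ENSG00000187608, GRCh38 chromosome 1, 1001138 to 1014541), the ubiquitin-like modifier, had 187 FPKM in mock, 1312 with PSPC1/PTK6, 140 with PSPC1, 73.5 with PSPC1-Y523F and 238 with PSPC1-Y523F/PTK6. It was the most abundant member of this group in each SK-Hep1 library, and its read ratio to mock was 7.0 (6.74 to 7.28). HERC5, the main ISG15 ligase, had 10.3 FPKM in mock, 78.6 with PSPC1/PTK6, 11.7 with PSPC1, 4.77 with PSPC1-Y523F and 8.42 with PSPC1-Y523F/PTK6. UBE2L6, its conjugating enzyme, had 44.7 FPKM in mock, 110 with PSPC1/PTK6, 39.7 with PSPC1, 21.1 with PSPC1-Y523F and 56.6 with PSPC1-Y523F/PTK6. The related ligase HERC6 had 4.5 FPKM in mock, 11.6 with PSPC1/PTK6, 3.32 with PSPC1, 3.33 with PSPC1-Y523F and 4.56 with PSPC1-Y523F/PTK6. Its log2 fold change of 0.90 was under 2-fold on the normalized scale with 1 added, although the deposited levels were more than 2-fold apart. USP18, which removes ISG15 and restrains receptor signalling, had 10.3 FPKM in mock, 22.6 with PSPC1/PTK6, 5.83 with PSPC1, 4.74 with PSPC1-Y523F and 10.4 with PSPC1-Y523F/PTK6, a log2 fold change of 0.84.

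The oligoadenylate synthetases, which activate RNase L or related defences when they bind double-stranded RNA, gave 3 of 4 genes at least 2-fold higher. OAS1 had 8.77 FPKM in mock, 38.9 with PSPC1/PTK6, 0.996 with PSPC1, 0.664 with PSPC1-Y523F and 13.1 with PSPC1-Y523F/PTK6. OAS2 had 9.64 FPKM in mock, 55.9 with PSPC1/PTK6, 1.97 with PSPC1, 1.52 with PSPC1-Y523F and 3.90 with PSPC1-Y523F/PTK6. Both were at most 1.97 FPKM in PSPC1 and PSPC1-Y523F, the lowest of the 5 libraries. OAS3 had 107 FPKM in mock, 103 with PSPC1/PTK6, 35.5 with PSPC1, 31.3 with PSPC1-Y523F and 63.7 with PSPC1-Y523F/PTK6, so that mock and PSPC1/PTK6 lay close, with a read ratio of 0.961 (0.920 to 1.00). OASL, which acts on RIG-I rather than through RNase L, had 99.5 FPKM in mock, 244 with PSPC1/PTK6, 50.5 with PSPC1, 44.5 with PSPC1-Y523F and 53.0 with PSPC1-Y523F/PTK6. OAS1, OAS2 and OAS3 are neighbours on chromosome 12 (112906777 to 113011723, GRCh38), and the 3 had unequal changes of 1.83, 2.25 and −0.04.

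The IFIT proteins bind foreign RNA ends, and 3 of 4 of their genes were at least 2-fold higher. IFIT1 had 21.6 FPKM in mock, 100 with PSPC1/PTK6, 14.5 with PSPC1, 7.84 with PSPC1-Y523F and 23.4 with PSPC1-Y523F/PTK6. IFIT2 had 15.1 FPKM in mock, 67.0 with PSPC1/PTK6, 11.3 with PSPC1, 7.18 with PSPC1-Y523F and 10.9 with PSPC1-Y523F/PTK6. IFIT3 had 31.7 FPKM in mock, 142 with PSPC1/PTK6, 20.2 with PSPC1, 13.8 with PSPC1-Y523F and 21.8 with PSPC1-Y523F/PTK6. As in DDX58 and IFIH1, PSPC1/PTK6 was the highest and PSPC1-Y523F the lowest of the 5 libraries. IFIT5 differed less, between 2.45 and 7.73 FPKM, with a log2 fold change of 0.52.

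The membrane proteins split into abundant and scarce members. IFITM1 (ENSG00000185885, GRCh38 chromosome 11, 313506 to 315272), which blocks entry of enveloped viruses, had 1.62 FPKM in mock, 72.3 with PSPC1/PTK6, 1.18 with PSPC1, 0.303 with PSPC1-Y523F and 10.6 with PSPC1-Y523F/PTK6, from 22 reads in mock to 1082 reads with PSPC1/PTK6. The read ratio was 44.7 (29.3 to 71.5). IFITM2 and IFITM3, its close relatives, were already abundant in mock, at 728 and 1448 FPKM, and had log2 fold changes of 0.63 and 0.85. Their range over the SK-Hep1 libraries was 474 to 1197 FPKM for IFITM2 and 971 to 2553 FPKM for IFITM3. IFITM1 shares 32.5% of its exon bases with IFITM2 on the same strand, so their reads could be divided differently, and 21.3% of those of IFITM3 lie opposite another gene.

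Among the remaining effectors, RSAD2 (viperin), which makes a chain-terminating nucleotide, had 3.92 FPKM in mock, 54.9 with PSPC1/PTK6, 2.04 with PSPC1, 2.36 with PSPC1-Y523F and 3.88 with PSPC1-Y523F/PTK6. CMPK2, which stands head to head with RSAD2 on chromosome 2 and is commonly induced with it, had 0 to 6 reads in every SK-Hep1 library and was not kept. The neighbours thus parted in this line, as RSAD2 had a log2 fold change of 3.28. ISG20, an exonuclease, had 45.2 FPKM in mock, 87.7 with PSPC1/PTK6, 25.9 with PSPC1, 18.4 with PSPC1-Y523F and 18.7 with PSPC1-Y523F/PTK6. MX1 had 2.48 FPKM in mock, 2.61 with PSPC1/PTK6, 0.968 with PSPC1, 0.585 with PSPC1-Y523F and 1.28 with PSPC1-Y523F/PTK6, and MX2 had 0.143 FPKM in mock, 5.24 with PSPC1/PTK6, 0 with PSPC1, 0.0880 with PSPC1-Y523F and 0.943 with PSPC1-Y523F/PTK6. MX1, a GTPase often used as the first readout of interferon, had a read ratio to mock of 1.06 (0.764 to 1.46), although its promoter holds the ISRE core shown above. MX2 was at 0 to 37 reads in the other SK-Hep1 libraries and at 202 reads with PSPC1/PTK6.

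SAMD9, a restriction factor of poxviruses, had 2.30 FPKM in mock, 8.36 with PSPC1/PTK6, 0.786 with PSPC1, 0.680 with PSPC1-Y523F and 3.88 with PSPC1-Y523F/PTK6. SAMD9L, its paralog next to it on chromosome 7, had 1.59 FPKM in mock, 8.22 with PSPC1/PTK6, 0.359 with PSPC1, 0.127 with PSPC1-Y523F and 3.42 with PSPC1-Y523F/PTK6. TRIM22, a ubiquitin ligase, had 0.996 FPKM in mock, 17.0 with PSPC1/PTK6, 0.769 with PSPC1, 0.532 with PSPC1-Y523F and 7.40 with PSPC1-Y523F/PTK6. In each of the 3 genes, PSPC1-Y523F/PTK6 was second to PSPC1/PTK6. PARP14 had 12.5 FPKM in mock, 36.2 with PSPC1/PTK6, 7.21 with PSPC1, 5.26 with PSPC1-Y523F and 13.1 with PSPC1-Y523F/PTK6 and a log2 fold change of 1.29. PARP9, which acts with DTX3L, had 6.19 FPKM in mock, 14.3 with PSPC1/PTK6, 5.07 with PSPC1, 2.93 with PSPC1-Y523F and 7.96 with PSPC1-Y523F/PTK6 and a log2 fold change of 0.82. XAF1, a pro-apoptotic factor, had 1 read each in mock and PSPC1 and 187 reads with PSPC1/PTK6, at 0.0462 FPKM in mock, 7.85 with PSPC1/PTK6, 0.0495 with PSPC1, 0.190 with PSPC1-Y523F and 0.578 with PSPC1-Y523F/PTK6. Of its exon bases, 38.3% lie opposite another gene. EPSTI1 had 0 reads in 4 SK-Hep1 libraries and 1 read in PSPC1-Y523F. LGALS3BP, a secreted glycoprotein, was abundant throughout, between 604 and 1631 FPKM, with a log2 fold change of 0.72.

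Members with and without the ISRE core were set side by side. With PSPC1/PTK6, the 20 kept members with the core had a median log2 fold change of 2.08 against mock, and 14 of them were at least 2-fold higher. The 13 kept members whose promoter window lacked it had a median of 1.26, and 7 were at least 2-fold higher. The ranges overlapped, from −0.27 to 5.65 and from 0.46 to 4.68, and RSAD2, OAS1 and DDX58 were among the genes without a match. The GC content of transcripts, which can move fold changes between libraries, had a Spearman's rho of −0.09 with the fold change over all genes in this comparison and of −0.31 in that of PSPC1/PTK6 with PSPC1, and its part in the result was not tested.

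PSPC1 alone and PSPC1-Y523F alone went the other way. With PSPC1, 2 of 39 members kept were at least 2-fold higher (3.38% of all genes) and 5 at least 2-fold lower (2.19% of all genes), with a median log2 fold change of −0.55 against −0.03 over all genes. The 5 lower genes were OAS1 (−2.27), OAS2 (−1.79), IFI6 (−1.49), OAS3 (−1.47) and SAMD9L (−1.06), so 3 of 4 oligoadenylate synthetases were among them. From read counts with TMM factors, 8 members in place of 5 were lower. No sensor and no transcription factor was past 2-fold. With PSPC1-Y523F, 2 of 38 members kept were at least 2-fold higher (2.83% of all genes) and 16 at least 2-fold lower (2.46% of all genes), with a median of −0.91 against −0.01 over all genes. PSPC1-Y523F was the lowest of the 5 SK-Hep1 libraries for 32 of 42 members, and for 22.9% of all genes.

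The 16 genes lower with PSPC1-Y523F came from each role. They were the sensors IFIH1 (−1.17) and DDX60 (−1.34), the factor IRF7 (−1.40) and 13 effectors, including all 4 oligoadenylate synthetases. OAS1 had the largest difference of these, −2.52, with 217 reads in mock and 16 reads with PSPC1-Y523F, a read ratio of 0.0758 (0.0426 to 0.126). IFI6 followed at −2.41, and ISG15 had −1.25. IFIT3 (−1.02) and OASL (−1.08) lay just past 2-fold, and SAMD9 (−0.99), UBE2L6 (−0.94) and PARP14 (−0.93) just short of it. The number is therefore sensitive to the scale: it was 8 with 5 in place of 1 added to each FPKM, and 24 from read counts with TMM factors. Both comparisons share the mock library with that of PSPC1/PTK6.

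In contrast to the other members, BST2 and ODF3B were higher than mock with PSPC1 and with PSPC1-Y523F. BST2 (ENSG00000130303, GRCh38 chromosome 19, 17402939 to 17405648), tetherin, which holds budding virions at the cell surface, had 11.5 FPKM in mock, 207 with PSPC1/PTK6, 109 with PSPC1, 59.4 with PSPC1-Y523F and 14.9 with PSPC1-Y523F/PTK6. The read ratios to mock were 9.51 (8.03 to 11.3) with PSPC1, 18.1 (15.3 to 21.4) with PSPC1/PTK6, 5.19 (4.35 to 6.22) with PSPC1-Y523F and 1.30 (1.05 to 1.61) with PSPC1-Y523F/PTK6. BST2 was thus high in 3 transfectants and near the mock level in the fourth. ODF3B, of which little is known in the interferon response, had 0.715 FPKM in mock, 50.5 with PSPC1/PTK6, 15.9 with PSPC1, 6.78 with PSPC1-Y523F and 12 with PSPC1-Y523F/PTK6. It rested on 13 reads in mock and 120 to 1012 reads in the transfectants, all above mock, and 15.1% of its exon bases are shared with TYMP on the same strand.

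PSPC1-Y523F/PTK6 lay close to mock over most members. Of 38 members kept, 5 were at least 2-fold higher (3.44% of all genes) and 1 at least 2-fold lower (1.59% of all genes), and the median log2 fold change was 0.21 against −0.04 over all genes. From FPKM as deposited, these numbers were 4 and 2. The 5 were ODF3B (2.97), IFITM1 (2.17), TRIM22 (2.13), IFI27 (1.48) and IRF7 (1.02), and the gene lower was ISG20 (−1.07). The 4 sensors had values between −0.17 and 0.07, within 2-fold of mock.

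Libraries with PTK6 were then read against the same form of PSPC1 without it, in pairs of libraries that have none in common. PSPC1 itself also differed within the pairs, from 7.01 to 26.4 FPKM for the wild type and from 2.28 to 70.9 FPKM for PSPC1-Y523F. PTK6 went from 5.69 to 16.7 FPKM and from 4.09 to 10.5 FPKM. Changes with PTK6 and with the PSPC1 level cannot be told apart here. Added to wild-type PSPC1, PTK6 came with 34 of 42 members at least 2-fold higher (3.09% of all genes) and 0 lower (1.87% of all genes), and a median of 2.22 against −0.02 over all genes. All 42 were above 0. Added to PSPC1-Y523F, it came with 18 of 38 members at least 2-fold higher (3.78% of all genes) and 1 lower (2.2% of all genes), with a median of 0.99 against −0.03 over all genes, and 37 of 38 were above 0. In the latter comparison IFIH1 (1.00), IFITM2 (1.01), OAS3 (0.99) and OAS2 (0.99) lay just above or just under the threshold, and the number was 11 with 5 added to each FPKM in place of 1.

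Of 38 members kept in both, 16 were at least 2-fold higher with PTK6 on both forms of PSPC1, against 1.02% of 11931 genes. As 34 of 42 and 18 of 38 members were higher in the separate comparisons, an overlap near this size follows from those counts alone. Spearman's rho between these changes was 0.54 over the 38 members and 0.31 over all genes, as a description across genes. IRF7 had nearly equal changes of 2.34 and 2.41. TRIM22 (3.07 and 2.57), OAS1 (4.10 and 3.15) and IFI6 (3.57 and 2.96) also had large changes on both forms. RSAD2 (3.97 and 0.56), OASL (2.18 and 0.28), HERC5 (2.44 and 0.66) and IFI27 (6.34 and 2.36) differed more between the forms. BST2 was the one member with opposite signs, 0.91 with wild-type PSPC1 and −1.74 with PSPC1-Y523F. With 1 library each, none of these differences between the forms could be tested.

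**Figure D2:**
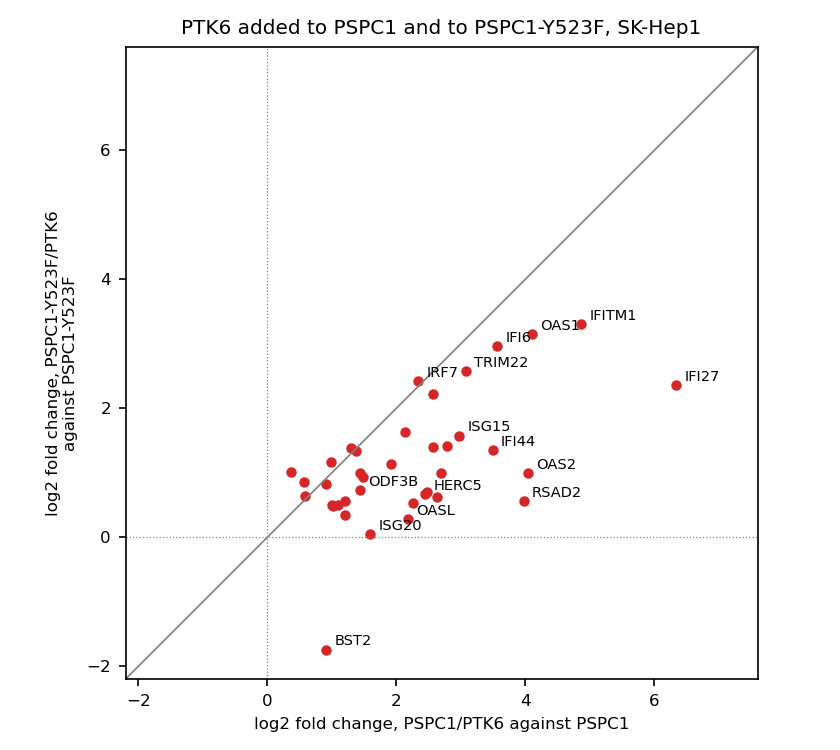
Log2 fold change of the library with PTK6 against that without it, for wild-type PSPC1 (x axis) and PSPC1-Y523F (y axis). Points are the 38 members kept in both comparisons, with the line of equality. PSPC1 levels also differed within each pair. Most points lie below the line, where the change is larger with wild-type PSPC1, IRF7 lies near it, and BST2 alone lies below 0 on the y axis.

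The genes upstream of the members were read from 4 lists of 32 genes. In SK-Hep1, 4 of 8 interferon genes had more than 10 reads in a library. IFNB1 (interferon beta) had 1.02 FPKM in mock, 2.05 with PSPC1/PTK6, 0.748 with PSPC1, 0.386 with PSPC1-Y523F and 0.0479 with PSPC1-Y523F/PTK6. IFNL1 had 1.40 FPKM in mock, 4.15 with PSPC1/PTK6, 1.1 with PSPC1, 0.996 with PSPC1-Y523F and 0.288 with PSPC1-Y523F/PTK6. IFNL2 had 0.689 FPKM in mock, 2.90 with PSPC1/PTK6, 0.805 with PSPC1, 0.0643 with PSPC1-Y523F and 0.168 with PSPC1-Y523F/PTK6, and IFNL3 had 0.664 FPKM in mock, 5.91 with PSPC1/PTK6, 2.21 with PSPC1, 0.887 with PSPC1-Y523F and 0.296 with PSPC1-Y523F/PTK6. Each was highest with PSPC1/PTK6 and each interval there (95% Wilson) lay above that of PSPC1-Y523F/PTK6, from 1.52 to 2.77 FPKM against 0.00846 to 0.272 FPKM in IFNB1 and from 4.85 to 7.20 FPKM against 0.127 to 0.694 FPKM in IFNL3. IFNL2 and IFNL3 are near-identical copies, so their division of reads is uncertain. The highest count was 98 reads, and IFNG had 0 reads in all 5 libraries. In Mahlavu, none of the 8 interferon genes had more than 2 reads in a library. IFNLR1, the receptor subunit for the IFNL products, had 0 or 1 reads in SK-Hep1, while IFNAR1 had 10.4 FPKM in mock, 12.5 with PSPC1/PTK6, 8.22 with PSPC1, 9.72 with PSPC1-Y523F and 8.24 with PSPC1-Y523F/PTK6.

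**Figure D3:**
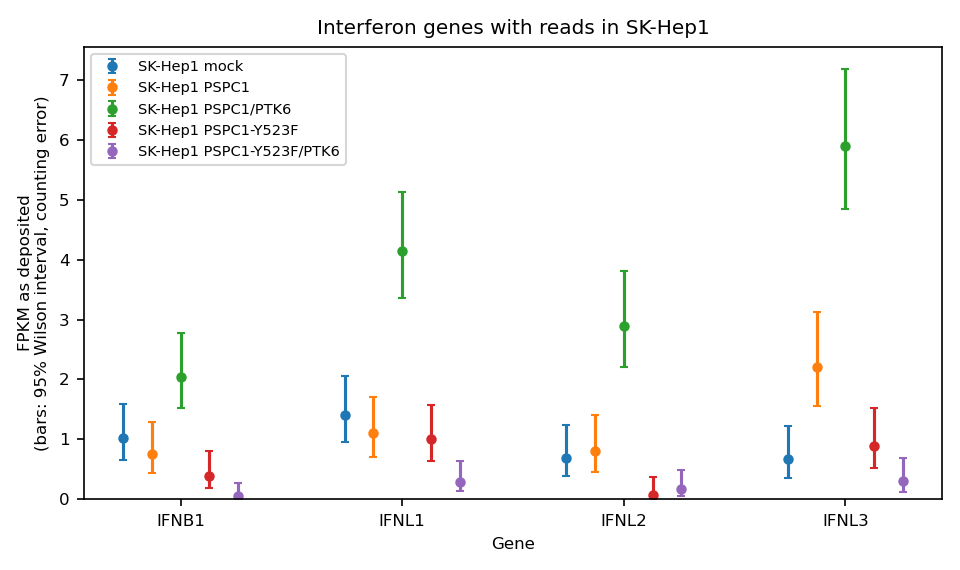
Deposited FPKM of the 4 interferon genes with reads in SK-Hep1, with 95% Wilson intervals that cover counting error only, in 5 libraries. PSPC1/PTK6 is the highest for each gene, at 2.05 FPKM for IFNB1 and 5.91 FPKM for IFNL3, and PSPC1-Y523F/PTK6 stays below 0.3 FPKM.

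Of the 32 upstream genes, 25 were kept for PSPC1/PTK6 against mock, and 2 were at least 2-fold higher (5.09% of all genes) and 0 lower (3.32% of all genes). These were IFNL3 (1.72, from 10 reads in mock and 98 reads with PSPC1/PTK6) and TMEM173 (1.98), which encodes the DNA-sensing adaptor STING. TMEM173 had 48.9 FPKM in mock, 198 with PSPC1/PTK6, 70.0 with PSPC1, 44.1 with PSPC1-Y523F and 34.4 with PSPC1-Y523F/PTK6. It was highest with PSPC1/PTK6, as the sensors were. None of the 25 genes kept with PSPC1, the 23 with PSPC1-Y523F or the 22 with PSPC1-Y523F/PTK6 was past 2-fold from mock. Over all genes, 1.59% to 3.44% were past 2-fold in a given direction in these comparisons. When PTK6 was added, TMEM173 (1.44) was at least 2-fold higher with wild-type PSPC1 (3.09% of all genes), and 0 of 21 genes with PSPC1-Y523F (3.78% of all genes). IRF3, TBK1, MAVS, JAK1 and TYK2, the constitutive signalling steps, had log2 fold changes between −0.50 and 0.40 with PSPC1/PTK6.

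In Mahlavu cells most ISGs were highest in mock. In the library labelled PSPC1-CT131, 22 of 42 members kept were at least 2-fold lower than in mock (3.16% of all genes) and 1 at least 2-fold higher (3.17% of all genes), with a median log2 fold change of −1.10 against 0.01 over all genes. With 5 in place of 1 added to each FPKM, 14 were lower. In the library labelled Mut-NLS-CT131, 22 of 42 were at least 2-fold lower (3.26% of all genes) and 1 higher (3.16% of all genes), with a median of −1.10 against 0.00 over all genes. Both comparisons share the mock library. Mock was the highest of the 3 libraries for 33 of 42 members, against 29% of all genes. The fold changes of the library labelled PSPC1-CT131 rose with GC content over all genes (Spearman's rho 0.57), and with GC content and length taken out, an alternative chosen after the data were seen, 20 members were at least 2-fold lower there and 23 with the label Mut-NLS-CT131.

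**Figure D4:**
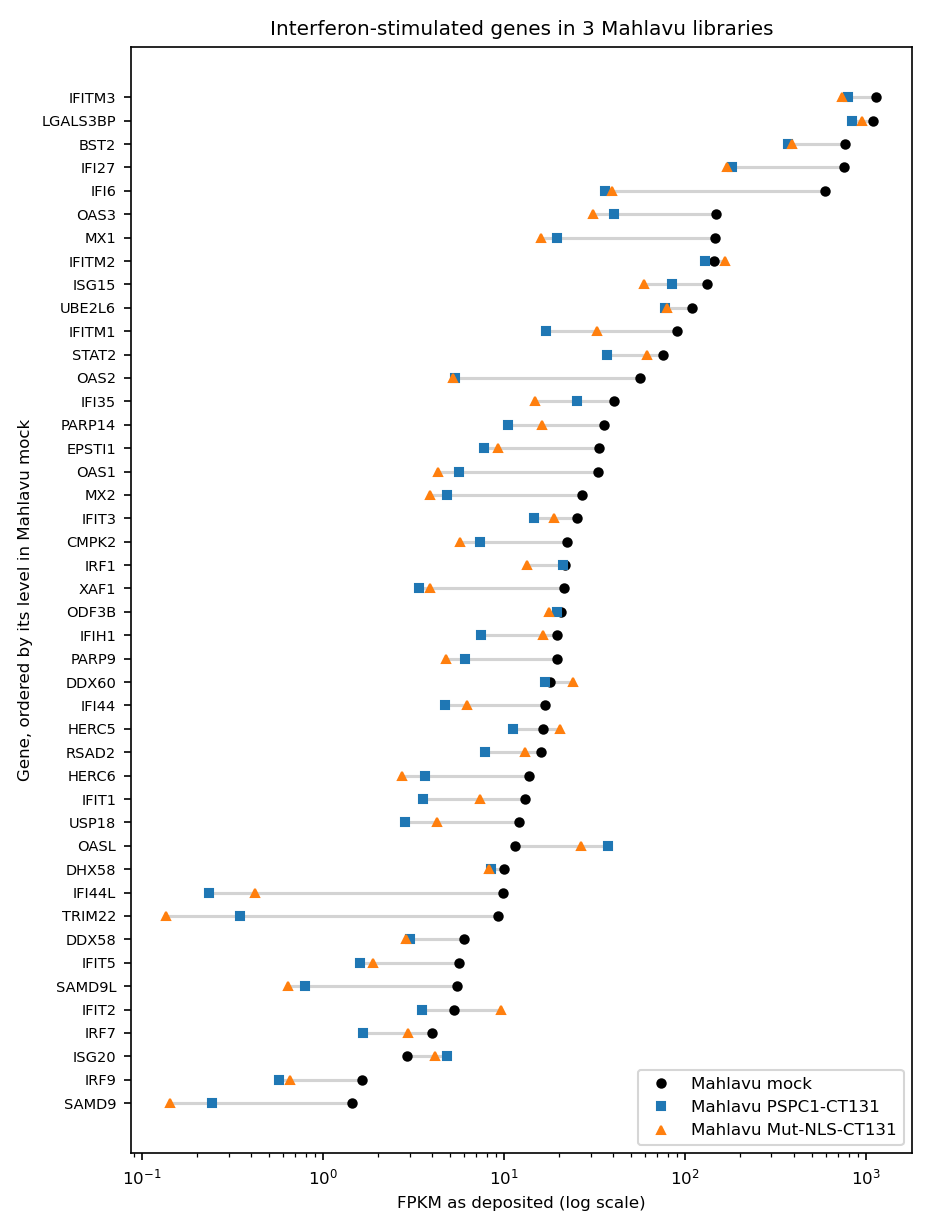
Deposited FPKM on a log scale of the 44 members in Mahlavu mock (circles), the library labelled PSPC1-CT131 (squares) and the library labelled Mut-NLS-CT131 (triangles). The circles lie to the right for most genes, by 589 FPKM against 36.0 and 39.5 FPKM in IFI6, and to the left for OASL and ISG20.

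On the log2 scale with 1 added to each FPKM, IFI6 had the largest difference from mock in both libraries, and by read ratio IFI44L and TRIM22 differed more. IFI6 had 589 FPKM in mock against 36.0 (label PSPC1-CT131) and 39.5 (label Mut-NLS-CT131), with log2 fold changes of −4.19 and −4.18. The read ratios to mock were 0.0611 (0.0562 to 0.0664) and 0.0670 (0.0617 to 0.0726). IFI27 had 758 FPKM in mock against 181 (label PSPC1-CT131) and 170 (label Mut-NLS-CT131). BST2 had 763 FPKM in mock against 369 (label PSPC1-CT131) and 387 (label Mut-NLS-CT131). In each, the libraries labelled for the fragments lay together and below mock. Of the other genes of the IFI group, IFI44 had 16.8 FPKM in mock against 4.73 (label PSPC1-CT131) and 6.21 (label Mut-NLS-CT131). IFI44L had 9.89 FPKM in mock against 0.232 (label PSPC1-CT131) and 0.422 (label Mut-NLS-CT131), or 390, 8 and 14 reads, which gave read ratios of 0.0235 (0.0101 to 0.0468) and 0.0427 (0.0231 to 0.0725). IFI35 had 40.5 FPKM in mock against 25.4 (label PSPC1-CT131) and 14.9 (label Mut-NLS-CT131). All 5 genes were past 2-fold in the library labelled Mut-NLS-CT131, and all but IFI35 in the library labelled PSPC1-CT131.

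Both Mx genes were lower. MX1 had 146 FPKM in mock against 19.7 (label PSPC1-CT131) and 16.0 (label Mut-NLS-CT131), a log2 fold change of −2.82 and −3.32. MX2 had 26.8 FPKM in mock against 4.81 (label PSPC1-CT131) and 3.89 (label Mut-NLS-CT131). In SK-Hep1, by contrast, MX1 was at most 2.61 FPKM and MX2 at most 5.24 FPKM. OAS1 had 33.1 FPKM in mock against 5.62 (label PSPC1-CT131) and 4.31 (label Mut-NLS-CT131). OAS2 had 56.3 FPKM in mock against 5.32 (label PSPC1-CT131) and 5.24 (label Mut-NLS-CT131). OAS3 had 148 FPKM in mock against 40.6 (label PSPC1-CT131) and 30.8 (label Mut-NLS-CT131). The 3 neighbours on chromosome 12 were lower together, whereas OASL, which lies elsewhere on that chromosome, had 11.5 FPKM in mock against 37.5 (label PSPC1-CT131) and 26.7 (label Mut-NLS-CT131), a log2 fold change of 1.99 and 1.37, and was the one member at least 2-fold higher in both libraries. ISG20 had 2.92 FPKM in mock against 4.83 (label PSPC1-CT131) and 4.17 (label Mut-NLS-CT131), with 0.99 and 0.59.

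EPSTI1, CMPK2 and XAF1, which had 0 to 4 reads in SK-Hep1 mock, were at least 2-fold lower than mock in both Mahlavu libraries. EPSTI1, a gene first described at the border of epithelium and stroma, had 33.3 FPKM in mock against 7.77 (label PSPC1-CT131) and 9.28 (label Mut-NLS-CT131). CMPK2 had 22.2 FPKM in mock against 7.39 (label PSPC1-CT131) and 5.70 (label Mut-NLS-CT131), and RSAD2 had 15.9 FPKM in mock against 7.86 (label PSPC1-CT131) and 13.1 (label Mut-NLS-CT131). RSAD2 stayed nearer to its mock level than its neighbour CMPK2 did, at −0.62 and −0.19 against −1.19 and −1.76. XAF1 had 21.4 FPKM in mock against 3.39 (label PSPC1-CT131) and 3.89 (label Mut-NLS-CT131). TRIM22 had 9.29 FPKM in mock against 0.349 (label PSPC1-CT131) and 0.136 (label Mut-NLS-CT131), or 244, 8 and 3 reads, and read ratios of 0.0376 (0.0160 to 0.0752) and 0.0146 (0.00299 to 0.0432). SAMD9L had 5.51 FPKM in mock against 0.792 (label PSPC1-CT131) and 0.641 (label Mut-NLS-CT131). SAMD9, with 192, 28 and 16 reads, had 1.45 FPKM in mock against 0.242 (label PSPC1-CT131) and 0.143 (label Mut-NLS-CT131) and was below the mean of 1 FPKM required.

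In the ISG15 system, ISG15 had 132 FPKM in mock against 84.7 (label PSPC1-CT131) and 59.6 (label Mut-NLS-CT131). USP18 had 12.1 FPKM in mock against 2.85 (label PSPC1-CT131) and 4.26 (label Mut-NLS-CT131). HERC6 had 13.7 FPKM in mock against 3.64 (label PSPC1-CT131) and 2.74 (label Mut-NLS-CT131). USP18 and HERC6 were past 2-fold in both libraries and ISG15 (−0.63 and −1.19) in that labelled Mut-NLS-CT131, while HERC5 had 16.3 FPKM in mock against 11.3 (label PSPC1-CT131) and 20.3 (label Mut-NLS-CT131) and UBE2L6 had 109 FPKM in mock against 77.1 (label PSPC1-CT131) and 79.6 (label Mut-NLS-CT131), without a 2-fold difference. IFITM1 had 89.8 FPKM in mock against 17.0 (label PSPC1-CT131) and 32.6 (label Mut-NLS-CT131), log2 fold changes of −2.26 and −1.53. IFITM2 and IFITM3 lay within 2-fold of mock, between 129 and 166 FPKM and between 735 and 1141 FPKM. PARP9 had 19.5 FPKM in mock against 6.09 (label PSPC1-CT131) and 4.74 (label Mut-NLS-CT131), and PARP14 had 35.5 FPKM in mock against 10.5 (label PSPC1-CT131) and 16.2 (label Mut-NLS-CT131). ODF3B had 20.6 FPKM in mock against 19.6 (label PSPC1-CT131) and 17.7 (label Mut-NLS-CT131) and LGALS3BP was between 837 and 1092 FPKM, so neither was past 2-fold.

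Of the sensors and transcription factors, 1 gene was past 2-fold in Mahlavu on the normalized scale with 1 added. DDX58 had 6.03 FPKM in mock against 3.01 (label PSPC1-CT131) and 2.87 (label Mut-NLS-CT131). IFIH1 had 19.6 FPKM in mock against 7.42 (label PSPC1-CT131) and 16.5 (label Mut-NLS-CT131), and its log2 fold change of −1.01 in the library labelled PSPC1-CT131 was the one sensor value past 2-fold in either library. DHX58 had 10.0 FPKM in mock against 8.50 (label PSPC1-CT131) and 8.19 (label Mut-NLS-CT131), and DDX60 had 18.0 FPKM in mock against 16.9 (label PSPC1-CT131) and 24.0 (label Mut-NLS-CT131). Neither was past 2-fold. STAT2 had 75.7 FPKM in mock against 36.9 (label PSPC1-CT131) and 61.6 (label Mut-NLS-CT131). IRF1 had 21.7 FPKM in mock against 21.1 (label PSPC1-CT131) and 13.3 (label Mut-NLS-CT131). IRF7 had 4.01 FPKM in mock against 1.65 (label PSPC1-CT131) and 2.93 (label Mut-NLS-CT131), and IRF9 had 1.65 FPKM in mock against 0.571 (label PSPC1-CT131) and 0.652 (label Mut-NLS-CT131), on 33 reads or fewer. No transcription factor kept was past 2-fold on that scale, and STAT2 was just short of it with the label PSPC1-CT131 (−0.94). As deposited FPKM, STAT2, IRF7 and IRF9 were each more than 2-fold below mock in that library. The IFIT genes were mixed: IFIT1 had 13.0 FPKM in mock against 3.56 (label PSPC1-CT131) and 7.33 (label Mut-NLS-CT131), IFIT2 had 5.30 FPKM in mock against 3.51 (label PSPC1-CT131) and 9.62 (label Mut-NLS-CT131), IFIT3 had 25.2 FPKM in mock against 14.6 (label PSPC1-CT131) and 18.9 (label Mut-NLS-CT131), and IFIT5 was between 1.60 and 5.65 FPKM. IFIT1 was past 2-fold in the library labelled PSPC1-CT131 only (−1.28 and −0.67), and the difference between the libraries was not tested.

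Read against each other, the library labelled PSPC1-CT131 and the library labelled Mut-NLS-CT131 had 0 of 39 members at least 2-fold apart in either direction, where 4.23% of all genes reached 2-fold upwards and 4.59% downwards. The median was 0.01 for the members and 0.01 over all genes. The furthest were IFIT2 (−0.99) and IFI35 (0.97), just short of 2-fold. From FPKM as deposited, 2 members were at least 2-fold lower. A difference under 2-fold between single libraries does not show that the constructs act alike. Of the 32 upstream genes, 22 were kept for each label against mock. SOCS1 (1.16), a feedback inhibitor, was the 1 gene at least 2-fold higher in the library labelled PSPC1-CT131 (3.17% of all genes). TRIM25 (−1.19), a ligase that activates RIG-I, was the 1 gene lower in the library labelled Mut-NLS-CT131 (3.26% of all genes). Between these libraries 21 were kept, and IKBKE (1.12), a kinase related to TBK1, was higher with the label PSPC1-CT131 (4.23% of all genes).

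SK-Hep1 and Mahlavu have no library in common, so their changes could be set side by side. Of 40 members kept in both, 27 were at least 2-fold higher with PSPC1/PTK6 in SK-Hep1 and 20 at least 2-fold lower in the library labelled PSPC1-CT131 in Mahlavu. The overlap was 15 genes, 37.5% of the members kept in both, against 0.486% of 11101 genes. These were 55.6% of the members higher in SK-Hep1 and 75% of those lower in Mahlavu, and over all genes the like shares were 10.8% and 16.9%. With the label Mut-NLS-CT131, the overlap was 14 genes, 35% of the members kept in both, against 0.397% of genes, and 51.9% and 70% of the lists against 8.75% and 14.2% over all genes. With either label, 27 of 40 members were higher in SK-Hep1 and 20 of 40 lower in Mahlavu. Overlaps near these sizes follow from such counts alone, so they show no gene-by-gene link between the lines. Spearman's rho between the changes in both lines was −0.21 over the 40 members and −0.10 over all genes with the label PSPC1-CT131, and −0.09 and 0.31 with the label Mut-NLS-CT131, as a description across genes. IFI27, IFI6, IFITM1, OAS1, OAS2 and BST2 were in the overlap with both labels, and MX1 and OAS3 were not, as they were lower in Mahlavu but within 2-fold in SK-Hep1. OASL was at least 2-fold higher in both settings.

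In Huh-7 cells, HGF came with 0 of 27 members kept at least 2-fold higher (0.428% of all genes) and 0 at least 2-fold lower (0.393% of all genes). The median log2 fold change was 0.12 against 0.00 over all 14262 genes. HGF was the higher of both libraries for 25 of 27 members, against 49.4% of all genes, and ODF3B (−0.23) and MX1 (−0.02) were the other two. The difference was small for each gene, and the largest was that of IFITM3 (0.54), at 65.5 FPKM in control and 94.3 FPKM with HGF, from 688 and 922 reads. Of the 32 upstream genes, 21 were kept and 0 were past 2-fold.

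In Huh-7, the levels of single members ranged widely. MX2 had 64.9 and 69.4 FPKM in control and with HGF, and UBE2L6 had 140 and 173 FPKM, and these were the members that were highest in Huh-7 among the 3 control libraries. STAT2 had 45.8 and 48.0 FPKM, ISG15 had 41.6 and 44.7 FPKM, and both were well above the median member. PARP14 had 14.2 and 16.1 FPKM, IFI6 13.8 and 14.9 FPKM, ISG20 12.3 and 13.1 FPKM, USP18 10.8 and 11.1 FPKM and OAS3 7.61 and 9.02 FPKM. ODF3B had 7.21 and 6.02 FPKM, PARP9 6.66 and 7.13 FPKM, LGALS3BP 5.71 and 6.68 FPKM, IRF1 5.92 and 6.23 FPKM and IFI35 3.24 and 4.33 FPKM. IRF7 had 2.40 and 2.62 FPKM, OAS1 2.30 and 2.64 FPKM, MX1 2.04 and 2.05 FPKM and IRF9 1.31 and 1.85 FPKM. The sensors DDX58 (1.92 and 2.05 FPKM) and IFIH1 (2.0 and 2.72 FPKM) were low, and DDX60 (0.930 and 1.22 FPKM) and DHX58 (0.0980 and 0.316 FPKM) lower still. IFIT3 (1.13 and 1.27 FPKM), IFI27 (1.05 and 0.944 FPKM), IFIT1 (0.922 and 1.41 FPKM), HERC6 (0.869 and 1.17 FPKM) and HERC5 (0.847 and 0.851 FPKM) were near 1 FPKM. CMPK2 (0.533 and 0.441 FPKM), TRIM22 (0.264 and 0.396 FPKM), SAMD9 (0.250 and 0.291 FPKM), EPSTI1 (0.197 and 0.127 FPKM), IFIT2 (0.143 and 0.289 FPKM) and XAF1 (0.0612 and 0.197 FPKM) were below it. IFI44 and SAMD9L had 0 reads in both libraries, and BST2, IFITM1, OAS2, OASL and RSAD2 had 0 to 2 reads, so a change in them was not detectable at this depth. IFI44L had 1 and 7 reads. IFIT5 lay between 0.867 and 1.36 FPKM and IFITM2 between 10.5 and 13.5 FPKM.

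Across the SK-Hep1 libraries, 42 members had at least 10 reads in one of them, and 31 of these (73.8%) were highest in PSPC1/PTK6 and lower in PSPC1-Y523F than in mock and PSPC1, an order held by 22.6% of 15304 genes with as many reads. It was read on FPKM as deposited. Because the order was put together from the patterns given above for these members, it sums them up and adds no separate support. PSPC1 reads did not follow this order, since PSPC1-Y523F/PTK6 had the most of them. PTK6 did follow it, with its highest level, 16.7 FPKM, in PSPC1/PTK6. It had 4.09 FPKM with PSPC1-Y523F against 4.79 FPKM in mock and 5.69 FPKM with PSPC1. Whether the level of either gene bears on the order was not tested. The members' median GC content, 49.5%, was near the 49.1% of all genes kept in the comparison of PSPC1/PTK6 with mock.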

How the data were processed

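RNA-Seq was performed on 10 libraries of 3 hepatocellular carcinoma lines. The authors deposited, per library, FPKM values and, for SK-Hep1 and Mahlavu, raw read counts per gene with GRCh38 positions. The submitters' processing notes name TopHat2 2.0, HTSeq 0.6.1, edgeR and GRCh38.p12, while the study's methods name hg18. Poly-A selection is given in the labels and rRNA depletion in the methods. Of the shared genes, 97.6% lay at their GENCODE 29 position. Huh-7 reads were recovered from the deposited FPKM, and all came out whole within 0.05. FPKM were quantile-normalized over the 8 SK-Hep1 and Mahlavu libraries and over the 2 Huh-7 libraries, 1 was added, and log2 ratios were taken for genes whose mean over both libraries reached 1 FPKM. Levels are FPKM as deposited. With 1 library per condition no test was made, and counts of genes at least 2-fold apart are set beside those over all genes. Intervals are Wilson (levels) and exact Clopper-Pearson (read ratios) at 95%, and with the floor of 3 reads they cover counting error only, since reads carried no molecular identifiers. Libraries held 15245935 to 24278662 reads on genes, and 8 lines without values per table were left out. All 44 members were accounted for: levels in each library are given for sensors, transcription factors and effectors at least 2-fold from the control of their line, and ranges for the other effectors. Members, lists and comparisons were chosen with earlier results of these data known. Other pseudocounts, unnormalized FPKM, no filter and TMM-scaled read counts (edgeR 4.0.16 in R 4.3.3) were tried. Python 3.11.15 with pandas 2.3.3 and scipy 1.17.1 was used, and the scripts were tested on simulated data. One gene of the signalling lists is not reported here.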

Additional observations from a re-analysis of the deposited data

Results flagged for a closer look

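BST2 was singled out because the libraries with PTK6 differed in opposite directions from those without it on the 2 forms of PSPC1. The log2 fold change was 0.91 for PSPC1/PTK6 against PSPC1, from 109 to 207 FPKM, and −1.74 for PSPC1-Y523F/PTK6 against PSPC1-Y523F, from 59.4 to 14.9 FPKM. The difference between these changes was not tested, as each condition had 1 library. Over the alternatives, the values for BST2 lay between 0.71 and 0.92 and between −1.93 and −1.55.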

How the results depend on the processing

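Of 104 counts of members at least 2-fold apart under an alternative, 88 stayed within 1.5 times the reported count and 16 did not, and no member that was at least 2-fold apart changed sign. With a pseudocount of 5, 8 members in place of 16 were lower with PSPC1-Y523F, 0 in place of 1 lower with PSPC1-Y523F/PTK6, 11 in place of 18 higher with PSPC1-Y523F/PTK6 than with PSPC1-Y523F, and 14 in place of 22 lower in the library labelled PSPC1-CT131. With a pseudocount of 0.1, 2 in place of 1 were lower with PSPC1-Y523F/PTK6, 2 in place of 1 higher in each of the libraries labelled PSPC1-CT131 and Mut-NLS-CT131, and 1 higher and 1 lower in place of 0 between these libraries. With TMM-scaled reads, 8 in place of 5 were lower with PSPC1, 2 in place of 1 lower with PSPC1-Y523F/PTK6, 2 in place of 1 higher in each of these Mahlavu libraries, and 2 in place of 0 lower between them. With FPKM as deposited, 2 in place of 1 were lower with PSPC1-Y523F/PTK6 and 2 in place of 0 between the Mahlavu libraries. That scale moved the median of all genes to 0.15 (PSPC1/PTK6 against mock), 0.20 (against PSPC1), −0.13 (PSPC1-Y523F/PTK6), −0.24 (library labelled PSPC1-CT131) and −0.13 (between these Mahlavu libraries). The cause of these shifts was not tested. No paired analysis was possible because each condition had 1 library, and for the same reason no replicate could be left out. Members with a few reads, such as IRF9 and the 13 members with fewer than 10 reads in Huh-7 control, are limited by depth.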
